A study of Homo sapiens with 9 samples.

Results

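The 40 mitosis genes described here are a fixed list of genes that drive or carry out the separation of chromosomes: cyclins and kinases, the spindle checkpoint and its target, kinetochore and centromere proteins, kinesins, spindle assembly factors, cytokinesis factors, a condensin subunit and the proliferation antigen MKI67. The members are listed by gene name and not by a threshold on a measured value, and all 40 were found among the 52158 named genes of the raw count table. RNA was sequenced from 9 established human cell lines labelled as oesophageal adenocarcinoma, all with gastric cardia adenocarcinoma as their source: ESO-26, ESO-51, FLO-1, JH_EsoAd1, OAC_5.1_C, OACP4_C, OE19, OE33 and SK-GT-4. The lines were grown without treatment to 80% confluency, and no genotype, drug or time point divides them. Each line has 1 column of counts, and the design text speaks of 3 technical replicates of each line without saying how they enter that column. No difference between lines could therefore be tested, and all comparisons are descriptions of these 9 libraries. Every level is in CPM, the count relative to the library total after scaling by trimmed mean of M values (TMM), and every difference is log2(CPM + 1) in a library minus the median of the other 8.

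Totals ranged from 16801179 counts in ESO-26 to 69881539 in FLO-1, and mitochondrial genes held 1.48% of counts (ESO-26) to 24.7% (JH_EsoAd1). Names of libraries are those of the labels. ERBB2, the receptor gene for which OE19 is widely known as an amplified line, was at 185 CPM under the label OE19. Under the label SK-GT-4 it was at 18325 CPM. The identity of the lines was not tested, so statements on any line hold for the library under that name. Epithelial markers were far lower in ESO-26 and in OE33 than in the other libraries. In ESO-26 10 of 10 were at least 2-fold lower (list median -6.62), and in OE33 8 of 10 (-6.33). Of the 19719 genes that reached a CPM of 1 in some library, 14.4% and 10.9% were that much lower there. Summed epithelial markers were at 166 CPM in ESO-26, 1208 CPM in OE33 and 5359 to 16402 CPM in the other 7 libraries. CDH1 stood at 0.173 and 21.5 CPM in these 2 lines, in that order, and EPCAM at 5.13 and 0.189 CPM. Summed fibroblast markers were highest in ESO-26, at 329.7 CPM against 1.96 to 88.8 CPM in the others. In ESO-26 3 of the 7 tested were over 4-fold higher and 1 over 4-fold lower, as were 772 and 1242 of all 19719 genes tested. Of those 7, 4 lay above 0 and 3 below. Of all 8 listed, 2 were at a count of 0 there. Summed haematopoietic markers were also highest in ESO-26 (26.8 CPM, 3 of the 7 listed at a count of 0, 3.32 to 22.6 CPM in the others). Of the 5 tested, however, 1 was over 4-fold higher there and the other 4 were below 0 (list median -0.14). Summed endothelial markers were highest in JH_EsoAd1 (32.2 CPM). ESO-26 is also the library with the highest mitosis list median. The part of these differences in the values of the mitosis genes was not tested.

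Mitotic genes are among the most periodic of the cell cycle. Their transcripts are low in G1, climb through S phase and peak in G2 and M, when the cyclin B and CDK1 kinase drives entry into mitosis. The spindle checkpoint holds the anaphase-promoting complex (APC/C) back until kinetochores are attached, after which CDC20 and UBE2C help the complex to destroy cyclins and securin. The MuvB complex with MYBL2 and FOXM1 switches these genes on through a promoter element known as the cell cycle genes homology region (CHR), often beside CCAAT boxes bound by NF-Y. The p53 pathway, through CDKN1A, turns them off. In a bulk library a low level of these genes may come from fewer cells in G2 and M or from less RNA per cell, and the 2 cannot be told apart.

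Promoter windows of the genes show the elements by which they are known to be switched together. RefSeq windows of 300 bases (250 before to 50 after each transcription start, build GRCh38.p14) matched 35 of the 40 members. AURKA, TTK, UBE2C, BIRC5 and TPX2 had no entry, and 5 members had several windows. The letters searched on both strands were TTTGAA, the usual form of the CHR core, its variant form TTTAAA, and the box bound by NF-Y, CCAAT. The 6 windows below were chosen to show both B-type cyclins, a kinase and a kinetochore gene with the common arrangement, and the members NDC80 and ANLN, which hold a CHR core and no CCAAT and were also among the members that strayed farthest from the list. Capitals mark these letters on either strand, so that a reversed core reads TTCAAA and a reversed box reads ATTGG, and windows run 5′ to 3′ along the gene. They lie at chr5:69166900-69167199 (CCNB1), chr15:59104896-59105195 (CCNB2), chr16:23678639-23678938 (PLK1), chr1:214602945-214603244 (CENPF), chr18:2571307-2571606 (NDC80) and chr7:36389612-36389911 (ANLN), all on the plus strand.
CCNB1: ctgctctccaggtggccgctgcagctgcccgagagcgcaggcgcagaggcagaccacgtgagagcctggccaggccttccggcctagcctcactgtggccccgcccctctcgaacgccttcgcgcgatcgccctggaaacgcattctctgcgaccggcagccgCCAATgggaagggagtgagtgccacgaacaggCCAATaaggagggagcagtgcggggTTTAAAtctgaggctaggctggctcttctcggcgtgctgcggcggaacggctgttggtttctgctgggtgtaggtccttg
CCNB2: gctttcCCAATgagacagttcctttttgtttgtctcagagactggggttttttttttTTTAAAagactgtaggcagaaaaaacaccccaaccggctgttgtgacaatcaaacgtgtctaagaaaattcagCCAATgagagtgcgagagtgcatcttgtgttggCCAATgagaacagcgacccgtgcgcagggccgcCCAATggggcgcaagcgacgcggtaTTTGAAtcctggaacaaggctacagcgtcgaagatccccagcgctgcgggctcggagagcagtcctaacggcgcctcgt
PLK1: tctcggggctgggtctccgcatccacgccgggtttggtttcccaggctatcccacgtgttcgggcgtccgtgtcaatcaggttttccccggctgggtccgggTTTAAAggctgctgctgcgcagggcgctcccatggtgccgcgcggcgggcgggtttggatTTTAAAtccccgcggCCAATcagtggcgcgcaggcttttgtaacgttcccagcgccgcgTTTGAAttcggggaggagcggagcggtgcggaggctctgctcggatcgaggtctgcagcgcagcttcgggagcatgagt
CENPF: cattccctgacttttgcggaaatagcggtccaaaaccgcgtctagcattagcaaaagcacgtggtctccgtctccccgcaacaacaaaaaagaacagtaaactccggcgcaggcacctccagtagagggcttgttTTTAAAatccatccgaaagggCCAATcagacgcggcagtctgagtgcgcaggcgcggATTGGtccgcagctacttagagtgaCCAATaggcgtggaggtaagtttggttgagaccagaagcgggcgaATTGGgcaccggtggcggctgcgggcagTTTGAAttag
NDC80: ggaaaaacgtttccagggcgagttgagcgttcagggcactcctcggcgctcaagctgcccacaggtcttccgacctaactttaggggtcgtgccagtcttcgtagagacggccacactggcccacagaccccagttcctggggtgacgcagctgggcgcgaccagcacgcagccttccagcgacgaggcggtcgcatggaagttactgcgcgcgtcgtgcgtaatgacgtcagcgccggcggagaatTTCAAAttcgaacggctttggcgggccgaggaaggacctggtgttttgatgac
ANLN: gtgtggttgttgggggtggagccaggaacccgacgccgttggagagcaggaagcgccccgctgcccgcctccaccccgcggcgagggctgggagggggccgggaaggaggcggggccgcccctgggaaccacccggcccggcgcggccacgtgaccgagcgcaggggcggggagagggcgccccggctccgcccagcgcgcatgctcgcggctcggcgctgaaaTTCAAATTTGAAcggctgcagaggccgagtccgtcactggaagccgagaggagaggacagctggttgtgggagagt

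In CCNB2 a TTTGAA follows CCAAT boxes spaced upstream of the start, while CCNB1 holds TTTAAA with CCAAT boxes in the same arrangement. TTTGAA was found in 27 of 35 members (77.1%), against 15.7% of 15807 other protein-coding genes, 12.9% of 7716 other coding genes expressed in every library, and 15.2% of all 35116 windows. It was found in 2 of 35 matched DNA replication genes (5.71%). TTTAAA was present in 13 members (37.1%), against 12.8% of other coding genes and 12.2% of all windows. Either core was present in 32 members (91.4%) and in 24.5% of other coding genes. CCAAT was present in 28 members (80.0%) against 42.1% of other coding genes, 34.6% of all windows and 60.0% of replication genes. At least 2 CCAAT boxes were present in 18 members (51.4%) and 14.7% of other coding genes. The TTTGAA core and the CCAAT box shared a window in 22 members (62.9%) and in 6.47% of other coding genes. With a site that lies in several windows of a gene counted once, at its position nearest to a start, the median position relative to the start was -28 for 39 TTTGAA sites and -73 for 61 CCAAT sites. A match describes the letters of a window and not a bound site.

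How closely members followed the rest of the list was also read by element. The 28 members with CCAAT had a median correlation with the mean of the other members of 0.789, and the 7 without it (BUB1B, CENPE, NDC80, NUF2, KIF2C, ANLN and NCAPG) 0.817. Without OE19 these were 0.669 and 0.673. The same median was 0.795 for the 27 members with TTTGAA and 0.772 for the 8 without, and 0.586 and 0.749 without OE19. With OE19 left out the 8 members without TTTGAA thus had the higher median, a description over 8 libraries with no test.

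The list as a whole was lowest in OE19 and highest in ESO-26 and OAC_5.1_C. Its 40 genes held 0.162% of the counts of OE19 (Wilson 95% interval 0.161% to 0.164%), 0.734% in ESO-26 (0.730% to 0.738%) and 0.786% in OAC_5.1_C (0.783% to 0.788%), and 0.375% to 0.527% in the other 6 libraries. Such intervals cover counting error only. Summed levels were 1731 CPM in OE19, 3621 in OE33, 4516 in JH_EsoAd1, 4614 in ESO-51, 4728 in SK-GT-4, 4788 in OACP4_C, 4908 in FLO-1, 7112 in ESO-26 and 8188 in OAC_5.1_C. OE19 stood below the other 8, and ESO-26 and OAC_5.1_C above the 6 in the middle. ANLN alone gave 1366 CPM of the sum in OAC_5.1_C and 108 CPM in ESO-26. The order of these 2 libraries, by sum and by share of counts, rests on ANLN. OE19 was the lowest library for 34 of 40 members, as it was for 13.96% of the 10493 genes that reached a CPM of 1 in every library. ESO-26 was the highest for 19 members and OAC_5.1_C for 12, against 14.8% and 9.94% of those genes.

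In OE19 the list median was -1.41 (interval -1.70 to -1.27), where the interval is the binomial 95% interval of a median over members and measures the spread among genes, not between cultures. All 40 members lay below the median of the other libraries, 33 of them at least 2-fold, against 11.6% of the 19719 genes tested, which had a CPM of at least 1 in some library. No member was at least 2-fold higher there, against 11.6% of genes. In ESO-26 the median was 0.84 (interval 0.58 to 1.04), with 14 members at least 2-fold higher (background 12%) and 1 lower, ANLN (background 14.4%). In OAC_5.1_C the median was 0.72 (interval 0.56 to 0.88), with 10 members higher (background 12.2%) and 0 lower (6.97%). In each of these 2 libraries 36 of 40 members lay above the other libraries' median. The members called made up 82.5% of the list in OE19 (lower), 35.0% in ESO-26 (higher) and 25% in OAC_5.1_C (higher), each above the background, while all genes tested had medians of -0.022 in OE19, -0.024 in ESO-26 and 0.0048 in OAC_5.1_C. Leaving any 1 other library out of the reference gave list medians of -1.46 to -1.38 in OE19, 0.77 to 0.87 in ESO-26 and 0.66 to 0.81 in OAC_5.1_C. On the authors' deposited FPKM scale, whose denominator also holds counts outside the table, 18 members were at least 2-fold lower in OE19 (list median -0.94, median of all genes 0.046), 25 were higher in ESO-26 (1.22, all genes 0.095) and 32 were lower in JH_EsoAd1 (-1.47, all genes -0.57). Of all genes on that scale, 2.85% were that much lower in OE19 and 30.01% in JH_EsoAd1, and 10.9% were higher in ESO-26. JH_EsoAd1 and not OE19 was then the lowest library for the list. Counts outside the table were 77.3% of the file in JH_EsoAd1 and 25.8% in OE19. Through the denominator such counts lower the FPKM of all genes of a library by the same factor, not of the members alone. The position of JH_EsoAd1 thus depends on the scale used.

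In OE33 the list median was -0.31 (interval -0.55 to -0.034), and 6 members were at least 2-fold lower (background 10.9%): CCNA2, CDK1, MAD2L1, CENPE, ASPM and MKI67. The 1 member at least 2-fold higher in OE33 was CDC25C (background 12.8%). In OACP4_C the median was -0.18 (interval -0.42 to 0.030), with 3 members higher, MKI67, PLK1 and ANLN (10.6%), and 2 lower, CCNA2 and NDC80 (6.09%). SK-GT-4 had a median of -0.15 (interval -0.33 to 0.22), 0 members higher (12.4%) and 1 lower, CCNB1 (8.97%). In JH_EsoAd1 the median was -0.084 (interval -0.28 to 0.048), with 1 member higher, ANLN (11.2%), and 2 lower, CDC25C and KIF2C (5.59%). ESO-51 had a median of 0.10 (interval -0.093 to 0.29), 2 members higher, CCNB2 and HMMR (12%), and 2 lower, KIF20A and ANLN (10%). FLO-1 had a median of 0.12 (interval -0.019 to 0.19), 2 members higher, NDC80 and CDC20 (14.4%), and 0 lower (5.64%). In these 6 libraries the share of members called lay below or near the share of all genes. The 6 lower in OE33 make up 15.0% of the list, close to the background of 10.9%. In FLO-1, where the interval lies close to 0, leaving 1 library out of the reference moved the median between -0.029 and 0.19.

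**Figure D1:**
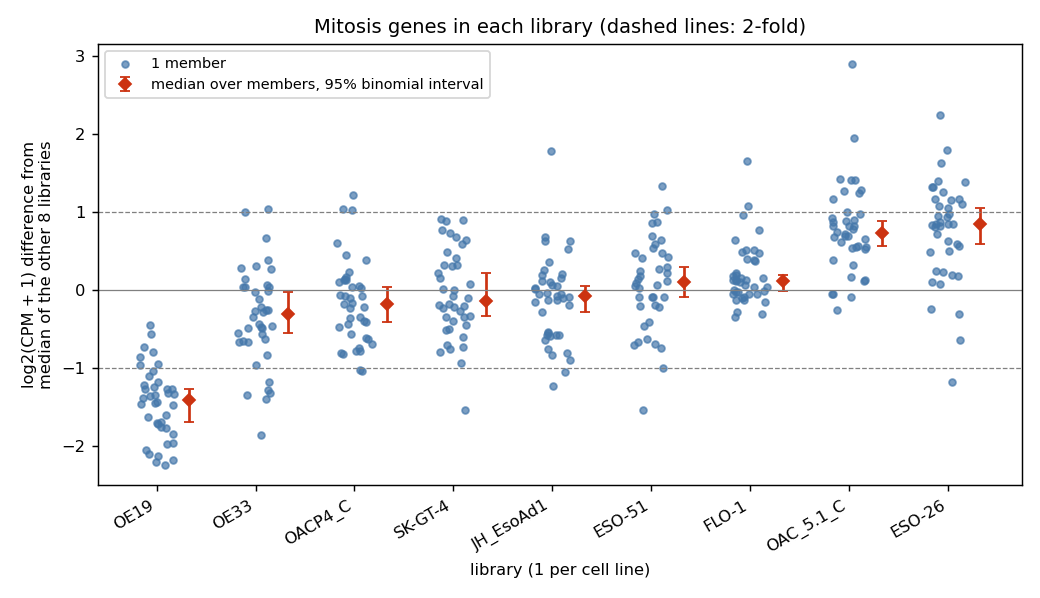
Each point is 1 of the 40 mitosis genes, plotted as its log2(CPM + 1) difference from the median of the other 8 libraries (vertical axis) in each library (horizontal axis, ordered by list median). Red diamonds are list medians with their binomial 95% interval over members: OE19 sits lowest at -1.41, and OAC_5.1_C and ESO-26 highest at 0.72 and 0.84.

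The switch for mitotic entry has 5 genes here (CDK1, its cyclins and its phosphatase). Of these, 4 were at least 2-fold lower in OE19 (background 11.6%) and 3 were higher in ESO-26 (background 12%). CDK1, the kinase itself, was at 37.8 CPM in OE19, 67.9 in OE33, 117 in JH_EsoAd1, 123 in SK-GT-4, 165 in OACP4_C, 186 in FLO-1, 200.3 in ESO-26, 216 in ESO-51 and 245 in OAC_5.1_C. It was low in OE19 (difference -2.18) and OE33 (-1.35), and the other 7 libraries lay between 117 and 245 CPM. CCNB1, its main mitotic cyclin, was at 40.9 CPM in OE19, 55.1 in SK-GT-4, 105 in ESO-51, 142 in JH_EsoAd1, 160.1 in FLO-1, 166 in OACP4_C, 198 in OE33, 243 in OAC_5.1_C and 339 in ESO-26. CCNB1 was low in SK-GT-4 (-1.55) as well as in OE19 (-1.97), while CDK1 in SK-GT-4 was at -0.50. CCNB2, the second B-type cyclin, ranged from 28.2 CPM in SK-GT-4 to 199.9 in OAC_5.1_C (median 51.4) and was at least 2-fold higher in OAC_5.1_C (1.95), ESO-26 (1.38) and ESO-51 (1.33). CCNA2, the cyclin of S phase and G2, was at 34.8 CPM in OE33, 38.9 in OE19, 63.2 in OACP4_C, 76.4 in JH_EsoAd1, 120.4 in FLO-1, 139.6 in ESO-51, 154 in SK-GT-4, 155 in OAC_5.1_C and 187 in ESO-26. It was at its lowest in OE33, not in OE19. CDC25C, the phosphatase that activates CDK1, ranged from 8.38 CPM in OE19 to 53.2 in ESO-26 (median 21.9) and was at least 2-fold higher than the other libraries' median in ESO-26 and OE33. In OE19 it was CCNB2 that stayed short of 2-fold, at -0.73.

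All 5 mitotic kinases were lowest in OE19. AURKA, which matures centrosomes, was at 52.96 CPM in OE19, 64.6 in OE33, 80.8 in JH_EsoAd1, 111 in SK-GT-4, 126 in ESO-26, 127 in OACP4_C, 143 in ESO-51, 166 in FLO-1 and 233 in OAC_5.1_C. AURKB, the kinase of the chromosomal passenger complex that corrects kinetochore attachment, was at 15.3 CPM in OE19, 25.3 in OACP4_C, 34.3 in SK-GT-4, 34.4 in ESO-51, 35.8 in FLO-1, 43.6 in OE33, 45.1 in JH_EsoAd1, 63.7 in ESO-26 and 84.1 in OAC_5.1_C. Both aurora kinases were lowest in OE19 and highest in OAC_5.1_C, but AURKA was low in OE33 (-0.96) where AURKB was not (0.30). PLK1, the polo-like kinase of mitotic entry and exit, was at 27.0 CPM in OE19, 30.3 in OE33, 34.3 in ESO-51, 43.7 in FLO-1, 46.6 in SK-GT-4, 48.8 in OAC_5.1_C, 65.2 in JH_EsoAd1, 80.9 in ESO-26 and 93.4 in OACP4_C. Its highest library was OACP4_C (1.03), where the list median was -0.18, and in OE19 it differed by -0.80, short of 2-fold. TTK, the checkpoint kinase also called MPS1, was at 17.7 CPM in OE19, 51.0 in OE33, 62.7 in OACP4_C, 63.3 in SK-GT-4, 65.4 in JH_EsoAd1, 100.5 in ESO-51, 109.8 in FLO-1, 162 in ESO-26 and 172 in OAC_5.1_C. It had a range of 3.21 on the log2 scale, among the 6 widest of the list, with OE19 at -2.14. BUB1, a kinetochore kinase of the checkpoint, ranged from 66.3 CPM in OE19 to 271 in ESO-26 (median 121), with OE19 at -0.96.

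Among the checkpoint and APC/C factors, CDC20, the coactivator that the checkpoint restrains, was at 72.0 CPM in OE19, 72.0 in OACP4_C, 84.7 in SK-GT-4, 101 in ESO-51, 107 in OE33, 107 in JH_EsoAd1, 219 in FLO-1, 234 in OAC_5.1_C and 234 in ESO-26. Its range of 1.69 was among the 2 narrowest of the list, and OE19 and OACP4_C were level at the bottom. UBE2C, the ubiquitin-conjugating enzyme of the APC/C, was at 32.6 CPM in OE19, 77.5 in ESO-51, 85.7 in SK-GT-4, 89.0 in JH_EsoAd1, 112 in FLO-1, 152 in OACP4_C, 157 in OAC_5.1_C, 159 in OE33 and 176 in ESO-26. Only in OE19 was it at least 2-fold lower (-1.97), with the next library at 77.5 CPM. PTTG1, the securin that holds separase back, was at 43.8 CPM in JH_EsoAd1, 46.5 in OE19, 55.6 in SK-GT-4, 60.1 in ESO-51, 61.9 in FLO-1, 66.6 in OACP4_C, 67.2 in OE33, 114 in OAC_5.1_C and 293 in ESO-26. ESO-26 stood apart as the high library (2.24), and OE19 (-0.46) lay above JH_EsoAd1. ESPL1, separase, which cuts the cohesin ring, ranged from 19.1 CPM in OE19 to 82.0 in SK-GT-4 (median 47.2). ESPL1 was therefore not high where its inhibitor PTTG1 was, at -0.31 in ESO-26. MAD2L1 and BUB1B, which form the checkpoint signal, were lowest in OE19 (21.6 and 18.5 CPM) and highest in ESO-26 (131 and 118 CPM). MAD2L1 was also at least 2-fold lower in OE33 (-1.40). Of these 6 genes 4 were at least 2-fold lower in OE19 (background 11.6%) and 3 higher in ESO-26 (background 12%).

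Of the centromere and kinetochore genes, 8 of 8 were at least 2-fold lower in OE19 (median -1.62, background 11.6%). BIRC5, survivin, the passenger complex subunit that brings AURKB to the centromere, was at 6.24 CPM in OE19, 20.4 in OACP4_C, 27.4 in SK-GT-4, 27.5 in OE33, 31.1 in ESO-51, 33.6 in JH_EsoAd1, 48.8 in ESO-26, 57.6 in FLO-1 and 79.5 in OAC_5.1_C. OE19 was the low library (difference -2.20), and the gene's range of 3.48 was among the 6 widest. CDCA8, borealin, of the same complex, ranged from 18.5 CPM in OE19 to 92.9 in ESO-26 (median 47.8). CENPA, the histone variant that marks centromeres, ranged from 11.0 CPM in OE19 to 64.8 in OAC_5.1_C (median 26.8), and CENPF, a large kinetochore protein of G2 and M, from 98.2 CPM in OE19 to 726 in OAC_5.1_C (median 409). CENPE, the kinetochore motor, was at 46.0 CPM in OE33 and 54.8 CPM in OE19 and reached 193 CPM in ESO-26. NDC80, NUF2 and SPC25 encode 3 subunits of the complex that binds spindle microtubules, and they did not move as a unit. NDC80 was at 17.9 CPM in OE19, 27.6 in OACP4_C, 36.6 in ESO-26, 43.5 in SK-GT-4, 46.2 in OE33, 72.4 in JH_EsoAd1, 75.3 in OAC_5.1_C, 88.9 in ESO-51 and 143 in FLO-1. NUF2 ranged from 14.9 CPM in OE19 to 81.1 in ESO-26 (median 45.2), and SPC25 from 2.07 CPM in OE19 to 13.4 in ESO-26 (median 11.8). SPC25 lay between 8.03 and 13.4 CPM in all libraries but OE19, where 58 counts gave 2.07 CPM (exact Poisson 95% interval 1.57 to 2.67), the smallest count behind any member value. In FLO-1, NDC80 was at 1.65, NUF2 at -0.051 and SPC25 at -0.019, and in ESO-26 they were at -0.65, 0.84 and 0.19.

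All 6 kinesins were at least 2-fold lower in OE19 (background 11.6%). KIF20A, a motor of the central spindle, was at 32.8 CPM in ESO-51, 42.4 in OE19, 55.9 in OACP4_C, 67.7 in SK-GT-4, 84.9 in FLO-1, 111 in OAC_5.1_C, 117 in JH_EsoAd1, 152 in OE33 and 264 in ESO-26. Unlike most members it was lowest in ESO-51 (-1.54) and stood high in OE33 (0.99) besides ESO-26 (1.79). KIF11, the motor that pushes spindle poles apart, ranged from 34.7 CPM in OE19 to 235 in OAC_5.1_C (median 127), and KIF18A, which limits chromosome oscillation, from 12.1 CPM in OE19 to 85.4 in JH_EsoAd1 (median 57.8). In KIF18A the next lowest library after OE19 was OE33 at 43.0 CPM. KIF2C, a microtubule depolymerase at centromeres, ranged from 41.9 CPM in OE19 to 229 in ESO-26 (median 87.1), and KIF23, of the midzone centralspindlin complex, from 49.1 CPM in OE19 to 199 in OAC_5.1_C (median 104). KIF4A, a chromosome-bound motor, ranged from 28.1 CPM in OE19 to 142 in SK-GT-4 (median 75.1), so SK-GT-4 was its highest library.

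Spindle assembly and midzone genes were at least 2-fold lower in OE19 in 6 of 6 cases (background 11.6%). TPX2, the activator of AURKA on the spindle, ranged from 84.5 CPM in OE19 to 362 in OAC_5.1_C (median 228). Outside OE19 it lay between 189 and 362 CPM. NUSAP1 ranged from 52.8 CPM in OE19 to 285 in ESO-26 (median 135), PRC1, the crosslinker of the midzone, from 75.7 CPM in OE19 to 277 in ESO-26 (median 170.3), and DLGAP5, a kinetochore fibre protein, from 39.0 CPM in OE19 to 260.3 in ESO-26 (median 94.1). DLGAP5 was at least 2-fold higher in ESO-26 (1.62) and OAC_5.1_C (1.42). HMMR ranged from 22.3 CPM in OE19 to 139 in ESO-51 (median 69.0), so ESO-51 was its highest library. ASPM, the spindle pole protein, ranged from 75.3 CPM in OE19 to 446 in SK-GT-4 (median 246), and SK-GT-4 and ESO-26 were nearly level at the top.

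The cytokinesis genes were the only role in which no member was 2-fold lower in OE19 (background 11.6%). ECT2, the exchange factor that activates RhoA at the cleavage furrow, was at 109 CPM in OE19, 134 in OE33, 178 in FLO-1, 182 in JH_EsoAd1, 184 in OACP4_C, 215 in ESO-26, 313 in SK-GT-4, 322 in OAC_5.1_C and 335 in ESO-51. It had the narrowest range of the 40 (1.61), with OE19 lowest at -0.86. ANLN, anillin, the scaffold of the contractile ring, was at 108 CPM in ESO-26, 122 in ESO-51, 127 in OE19, 144 in SK-GT-4, 232 in OE33, 259.8 in FLO-1, 371 in OACP4_C, 629 in JH_EsoAd1 and 1366 in OAC_5.1_C. Its range of 3.65 was the widest, its lowest library was ESO-26, where most members were high, and its highest libraries were OAC_5.1_C and JH_EsoAd1. MKI67, the antigen used to score proliferation, was at 140.5 CPM in OE19, 171 in OE33, 238 in ESO-51, 329 in ESO-26, 389.6 in JH_EsoAd1, 392 in FLO-1, 559.7 in SK-GT-4, 634 in OAC_5.1_C and 829.8 in OACP4_C. MKI67 was highest in OACP4_C (1.21) and at -0.25 in ESO-26, so it ranked the libraries unlike the list median. NCAPG, a condensin subunit, ranged from 25.5 CPM in OE19 to 142 in ESO-26 (median 68.6).

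**Figure D2:**
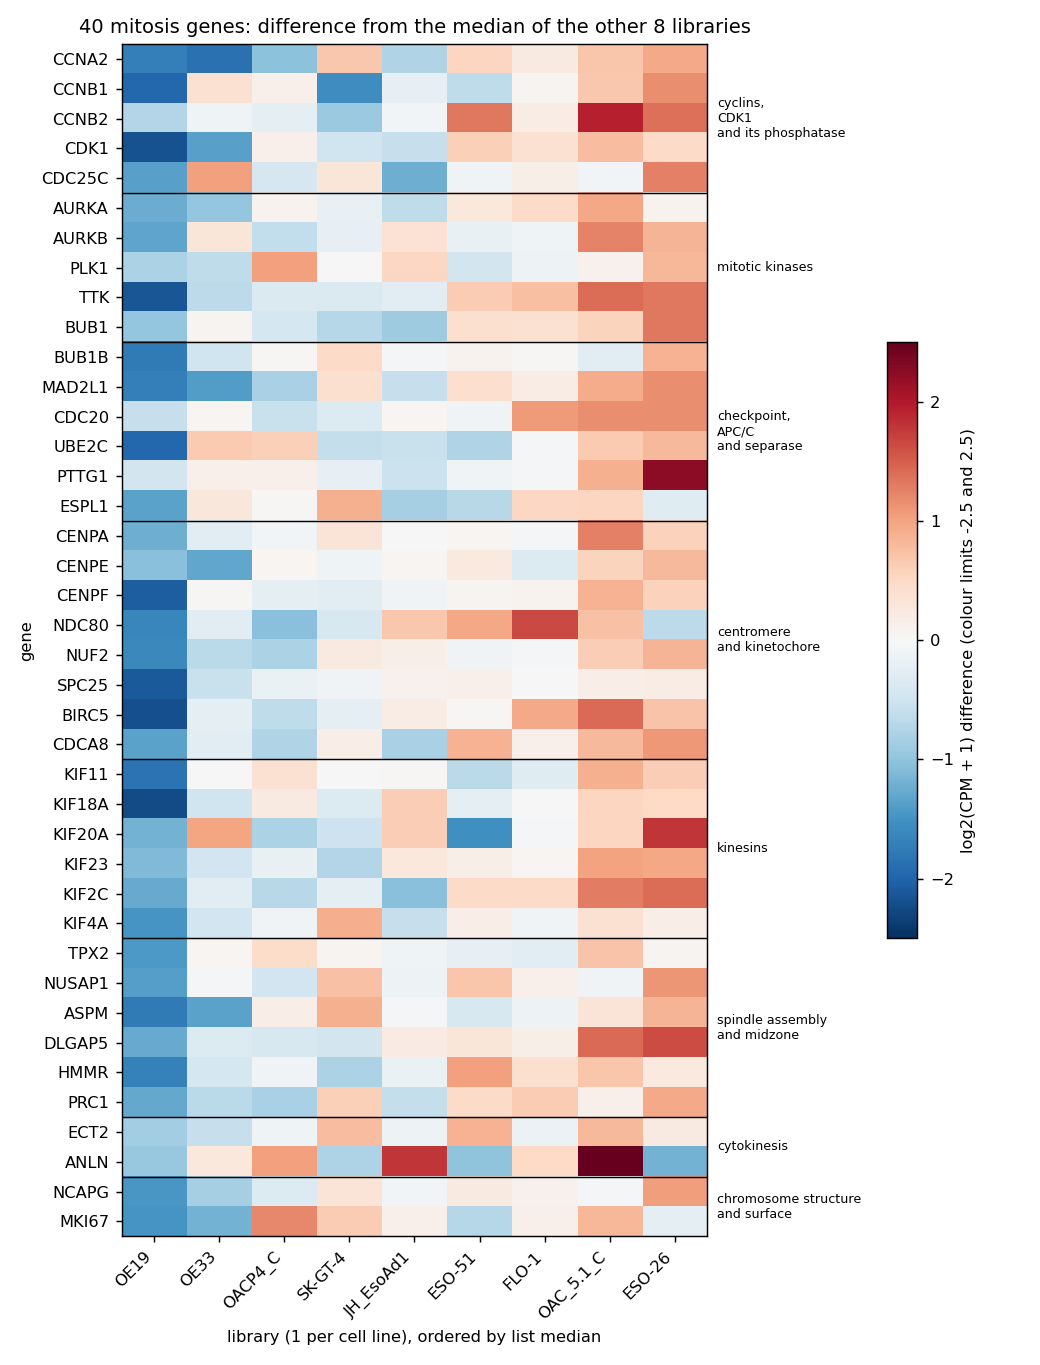
Colour gives the log2(CPM + 1) difference from the median of the other 8 libraries for each of the 40 genes (rows, grouped by role) in each library (columns, ordered by list median). The colour scale stops at 2.5, which ANLN in OAC_5.1_C passes at 2.89. The OE19 column is below 0 for 40 of 40 genes, from -2.25 (KIF18A) to -0.46 (PTTG1), while ANLN, NDC80, ESPL1 and MKI67 are below 0 in ESO-26, where the other 36 genes are above 0.

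Of the 360 pairs of a member and a library, 26 differed by more than 1 log2 unit from the list median of that library, 14 upward and 12 downward, in 15 members. ANLN held the 3 largest of these offsets: 2.17 in OAC_5.1_C, -2.02 in ESO-26 and 1.86 in JH_EsoAd1. Next came KIF20A in ESO-51 (-1.64), CCNA2 in OE33 (-1.55) and NDC80 in FLO-1 (1.53) and in ESO-26 (-1.49). PTTG1 in ESO-26 (1.40), CCNB1 in SK-GT-4 (-1.40) and MKI67 in OACP4_C (1.39) complete the 10 largest. No offset in OE19 passed 1 log2 unit, so no member left the list by more than 2-fold there.

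Genes next to these members on the chromosome were read in the same library, 3 on each side in the gene order of GENCODE 29. Of all genes tested, 14.4% were at least 2-fold higher in FLO-1, 12.2% in OAC_5.1_C, 11.2% in JH_EsoAd1, 12% in ESO-26, 10.6% in OACP4_C and 12.4% in SK-GT-4. At least 2-fold lower were 14.4% in ESO-26, 10.9% in OE33, 10% in ESO-51 and 8.97% in SK-GT-4. Around NDC80 on chromosome 18, 5 of 6 neighbours were at least 2-fold higher in FLO-1: ENOSF1 (2.09), YES1 (1.49), METTL4 (1.42), SMCHD1 (1.74) and LPIN2 (2.06), with EMILIN2 at -0.89. NDC80 itself was at 1.65, within the range of these neighbours. In ESO-26, where NDC80 was at -0.65, all 6 of the same neighbours were below 0 and 3 at least 2-fold lower (YES1 -1.28, METTL4 -1.11, LPIN2 -2.16). Around ANLN on chromosome 7, EEPD1, KIAA0895 and STARD3NL were at 2.39, 1.03 and 1.24 in JH_EsoAd1. HERPUD2, EEPD1 and KIAA0895 were at -1.59, -1.49 and -1.68 in ESO-26. In OAC_5.1_C 2 of the 6 were at least 2-fold higher, KIAA0895 at 1.37 and STARD3NL at 1.21, both less than ANLN at 2.89. KIAA0895 (up to 42.7 CPM) shares exon sequence with ANLN on the opposite strand. No strand setting is given, so their shared reads cannot be told apart, and KIAA0895 is not a separate reading of the region. None of the 6 neighbours of KIF20A on chromosome 5 was 2-fold lower in ESO-51, the lowest being CDC23 at -0.52. CDC23 and BRD8 likewise share exon sequence with KIF20A on the opposite strand. Around CCNB1 in SK-GT-4, CENPH (-1.08) and CDK7 (-1.76) were at least 2-fold lower and PIK3R1 (1.33) higher. For CCNA2 in OE33, PTTG1 in ESO-26 and MKI67 in OACP4_C, 1 of 6 neighbours moved 2-fold the same way, near the shares of all genes given above. The number of copies of these regions was not measured here.

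**Figure D3:**
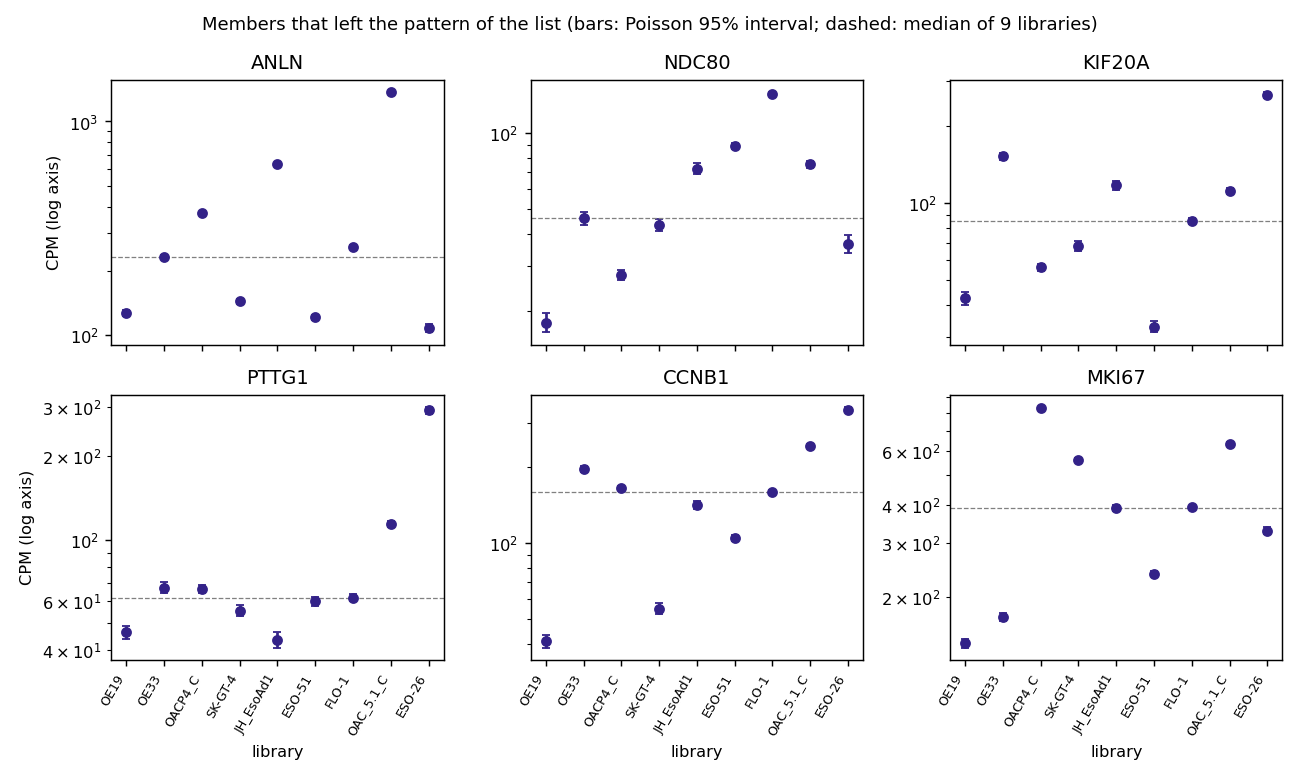
CPM (log axis) of ANLN, NDC80, KIF20A, PTTG1, CCNB1 and MKI67 in each library (1 point per library, ordered by list median from OE19 to ESO-26), with exact Poisson 95% intervals that are often smaller than the point. The dashed line is the median of 9 libraries. ANLN peaks in OAC_5.1_C at 1366 CPM and is lowest in ESO-26 at 108 CPM, whereas PTTG1 peaks in ESO-26 at 293 CPM.

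The members moved together across libraries, in large part through OE19. Over 9 libraries the 780 pairs of members had a median Pearson r of 0.646, and 769 pairs were positive, whereas pairs over all genes had a median r near 0. Without OE19 the median was 0.404 with 667 positive pairs. Without OE19 and OAC_5.1_C, the 2 libraries farthest from the median of the list profile, it was 0.370 with 583 positive pairs. These are descriptions: the points share their library, depth and scaling factor. TTK followed the mean of the other members most closely (r = 0.984, rho = 0.983; 0.962 without OE19 and 0.943 without both). CENPF (0.957) and CENPA (0.935) came next. ANLN followed it least, with r = 0.287 and rho = -0.0667 over 9 libraries and r = -0.606 without the 2 farthest. KIF20A (0.507), PLK1 (0.529), NDC80 (0.531), ESPL1 (0.562) and MKI67 (0.563) were also loosely tied to the rest.

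Mitosis genes outside the 40 likewise had their lowest list median in OE19 and their highest in OAC_5.1_C and ESO-26. Of 65 others tested, 51 (78.5%, background 11.6%) were at least 2-fold lower in OE19, where their median was -1.46 (interval -1.59 to -1.23). In OAC_5.1_C 15 (23.1%, background 12.2%) were higher and the median was 0.63 (interval 0.37 to 0.78). In ESO-26 the median was 0.50 (interval 0.40 to 0.63), while the 10 called higher (15.4%) were close to the background of 12%. At least 4-fold lower in OE19 were SGO2, KNL1, SKA3, SPC24, ZWINT, CENPK, SMC2, KIF15, KIFC1, WEE1, CDCA5, TRIP13 and MELK, with ZWINT, a kinetochore scaffold, lowest against its reference (-3.07, 6.91 CPM). At least 4-fold higher in 1 library were FAM83D in ESO-26 (441 CPM against a median of 50.7), TROAP in SK-GT-4 (165 against 23.8) and TRIP13 in FLO-1 (389 against 55.5). The 17 subunits and coactivators of the APC/C, most of which are not known as periodic transcripts, had medians of -0.22 to 0.28, with OE19 at -0.029 and 3 of 17 lower there (17.6%, background 11.6%).

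DNA replication genes, many but not all of which peak around S phase, lay level with the mitosis genes in OE19. They lay apart from them in ESO-26, ESO-51 and JH_EsoAd1. In OE19, 29 of 40 replication genes (72.5%, background 11.6%) were at least 2-fold lower, and the list median was -1.42, a difference from the mitosis median of 0.011. In ESO-26 the mitosis median lay 0.86 above the replication median of -0.023, and in ESO-51 0.70 above a replication median of -0.59, where 11 replication genes were lower (27.5%, background 10%). In OAC_5.1_C both lists were high (mitosis minus replication 0.31). JH_EsoAd1 had the opposite balance, with replication genes at 0.54, 10 of 40 higher (25%, background 11.2%), and mitosis minus replication at -0.62. The same difference was -0.29 in SK-GT-4, -0.27 in FLO-1, -0.17 in OE33 and -0.11 in OACP4_C. With other libraries left out of the reference in turn it crossed 0 in OE19 (-0.13 to 0.073) and in OACP4_C (-0.20 to 0.062). With 1 library per line these differences have no test. TOP2A, the topoisomerase that unlinks sister chromatids, counted in the replication list, was at 186 CPM in OE19, 377 in ESO-51, 482 in OACP4_C, 579.6 in OE33, 679 in SK-GT-4, 885 in JH_EsoAd1, 1131 in ESO-26, 1210.5 in FLO-1 and 1370.1 in OAC_5.1_C. It was highest in OAC_5.1_C (1.13) and FLO-1 (0.95), then in ESO-26 (0.85), where the replication list median was -0.023. In ESO-51, where the mitosis median was 0.10, TOP2A was lower than the other libraries' median by more than 2-fold (-1.04). Over all 9 libraries its correlation with the mean profile of the mitosis genes was 0.867, and 0.684 without OE19. Other replication genes at least 4-fold lower in OE19 were CDC45, GINS1, PCNA, RFC3, RRM2, DTL and CCNE1, and CDC45 and CCNE1 were at least 4-fold higher in OAC_5.1_C.

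Among 19 transcriptional regulators of the cycle, 6 were at least 2-fold lower in OE19 (31.6%, background 11.6%). FOXM1, which activates mitotic genes in G2, was lowest there at 13.7 CPM and highest in OAC_5.1_C at 102 CPM. Its correlation with the mean profile of the members was 0.878 (rho = 0.700) over 9 libraries, 0.613 without OE19 and 0.431 without OE19 and OAC_5.1_C. MYBL2, the MuvB partner, ranged from 20.5 CPM in OE19 to 103 in FLO-1, with r = 0.671 (rho = 0.433), 0.0667 without OE19 and -0.0169 without both, so the likeness rests on OE19. E2F1 (6.81 CPM) and E2F8 (3.35 CPM) were also at least 4-fold lower in OE19, and E2F2 was in OACP4_C (4.50 CPM). The NF-Y subunits, which bind CCAAT, differed by library: NFYA was at 165 CPM in SK-GT-4 against a median of 32.4, and NFYB at 128 CPM in OE33 against 25.7. In those 2 libraries the mitosis list medians were -0.15 and -0.31.

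The 13 listed p53 target genes had their highest list medians in OE19 and JH_EsoAd1, with intervals that include 0 in both. In OE19 the median was 0.83 (interval -0.15 to 1.41), and 6 of 13 were at least 2-fold higher (46.2%, background 11.6%). In JH_EsoAd1 it was 0.63 (interval -0.18 to 1.88), and 5 were higher (38.5%, background 11.2%). In ESO-26 it was 0.18 (interval -2.15 to 0.81), with 8 of 13 above 0, 2 at least 2-fold higher (15.4%, background 12%) and 3 lower (23.1%, background 14.4%). CDKN1A, the p21 inhibitor of cyclin-dependent kinases, was highest in JH_EsoAd1 at 193 CPM and next in OE19 at 147 CPM. It was lowest in ESO-26, at 0.923 CPM from 16 counts (Poisson 95% interval 0.527 to 1.498 CPM), the library with the highest mitosis list median. Its correlation with the mean member profile was -0.541 (rho = -0.283), -0.551 without OE19 and -0.739 without the 2 farthest libraries. GADD45A was at 88.6 CPM in OE19 and 3.52 CPM in ESO-26. Single targets of this list went their own way in other libraries: BTG2, SESN1 and SESN2 were at least 4-fold higher in ESO-51, BTG2 and FDXR in JH_EsoAd1, CCNG1 in ESO-26 and PLK2 in OAC_5.1_C. PLK2 was at least 4-fold lower in SK-GT-4 and ESO-51, SESN2 in FLO-1 and PLK3 in ESO-26, as was UBE2S of the APC/C list in ESO-51.

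**Figure D4:**
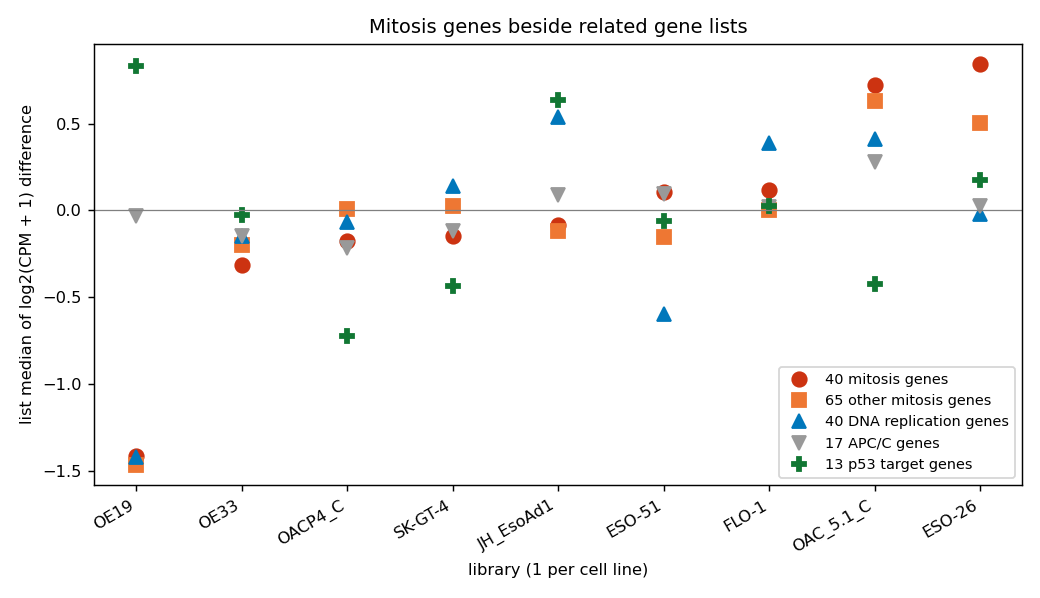
List medians of the log2(CPM + 1) difference from the other 8 libraries (vertical axis) for 5 gene lists in each library (horizontal axis, ordered by the mitosis list). The 3 proliferation lists lie at -1.46 to -1.41 in OE19 while the APC/C list is at -0.029, and the mitosis list parts upward from the replication list in ESO-26 and ESO-51 and downward in JH_EsoAd1.

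Among 10453 non-member genes that reached a CPM of 1 in every library, the 10 whose levels followed the mean member profile most closely over 9 libraries were CENPL (r = 0.964), CDCA2 (0.961), SPAG5 (0.945), NEK2 (0.937), SGO1 (0.931), TRAIP (0.915), NEK4 (0.913), EIF1AXP1 (0.913), ZWINT (0.913) and KIFC1 (0.912). Of these, 6 (CDCA2, SPAG5, NEK2, SGO1, ZWINT and KIFC1) were already in the list of 65 other mitosis genes, and none was in the replication list. All 10 were lowest in OE19, and 6 of them were within the 100 most alike when OE19 was left out. NEK2, a centrosome kinase, kept r = 0.935 without OE19 and 0.916 without OE19 and OAC_5.1_C, while KIFC1 went to 0.704 and 0.496.

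Levels of different members were compared per length, within a library, on the authors' deposited FPKM scale (counts relative to gene length and to the total of the file). TPX2 ranked between 1 and 5 of the 40 in each library, with 16.3 FPKM in OE19 and 60.7 FPKM in OAC_5.1_C. CDC20 ranked between 1 and 11, UBE2C between 3 and 12, CCNA2 between 2 and 13 and CENPF between 5 and 13. ESPL1 ranked between 37 and 40, SPC25 between 35 and 39, and BIRC5 between 34 and 40. The upper and lower ends of the order thus stayed apart in every library. ANLN (rank 1 to 32), NDC80 (5 to 34) and KIF20A (7 to 34) crossed most of the list. The deposited gene length was 9026 bases for BIRC5 and 3605 for TPX2, and an FPKM value scales with the inverse of that length.

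Reads shared with other genes could touch some of these values. In the GENCODE 29 gene models 17 members share exon sequence with another gene, 14 of them on the opposite strand, and since no strand setting is given those reads cannot be told apart. The overlapping genes at the highest levels were RGS5 beside NUF2 (up to 287 CPM), ERN2 beside PLK1 (up to 173 CPM), CDC23 and BRD8 beside KIF20A, and SLC35F6 on the same strand as CENPA (up to 125 CPM). Named near-identical copies or pseudogenes of 10 members were counted at low levels, at most 6.83% of the parent gene for CDC20P1 and 2.15% for PTTG3P.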

How the data were processed

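Total RNA of 9 cell lines was sequenced, 1 column of counts per line. STAR 2.6.1d, FastQC 0.11.7, R 3.6.1 and the build GRCh37 are named in the submitters' processing notes. The counting program, annotation release and strand setting are not given in the sources used here. The deposited table holds raw whole-number counts, unnormalised, per the file headers. A row with a blank name (0.00485% to 0.00965% of counts) was left out. The authors' file of each line gives counts, gene length and FPKM for 57905 identifiers, per the file headers. From the values, FPKM is the count divided by that length and by all counts of the file, of which 25.8% (OE19) to 77.3% (JH_EsoAd1) lie outside the table. All 40 members had equal counts in both. The column OACM5.1_C was read as the line OAC_5.1_C.

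CPM values use TMM factors (0.831 to 1.11, edgeR 4.0.16, R 4.3.3) from genes that reached a CPM of 1 in 2 or more libraries, and a pseudocount of 1 was added before taking log2. Python 3.11.15, numpy 2.4.6, pandas 2.3.3, scipy 1.17.1 and matplotlib 3.10.9 did the rest. A gene counted as higher or lower at 2-fold from the median of the other 8 libraries. With 1 library per line no test was run. The members and lists were chosen with earlier results of these data known. Of 228 list symbols 225 matched, and PBK, UHRF1 and PECAM1 were not analysed here. Values in every library are given for 10 genes of common use, the 6 members of widest and 2 of narrowest range, and the 10 largest offsets. Members that stand out otherwise were named after their values were seen. Proteins were not analysed here.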

Additional observations from a re-analysis of the deposited data

Results flagged for a closer look

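In 6 of 40 members the highest or lowest library lay so far from its nearest neighbour that the gap, as a share of the whole range on the log2(CPM + 1) scale, passed the 95% critical value of Dixon's test for 9 values. Chance gives about 1 such case in 20 groups, and 6.85% of the 10493 genes detected in every library (CPM 1 or more) met the rule. OE19 was the far library, on the low side, for 5 of the 6. UBE2C was at 32.6 CPM there and at 77.5 CPM in the next library (gap 0.510). CENPF was at 98.2 CPM there and at 342 CPM in the next library (gap 0.623). SPC25 was at 2.07 CPM there and at 8.03 CPM in the next library (gap 0.697). KIF18A was at 12.1 CPM there and at 43.0 CPM in the next library (gap 0.643). TPX2 was at 84.5 CPM there and at 189 CPM in the next library (gap 0.553). ESO-26 was the far library, on the high side, for PTTG1 (293 CPM, next 114 CPM, gap 0.498). The 9 libraries are of 9 different lines and not replicates of a condition. The summed level of the 40 members in OE19 had a gap of 0.475 of the range, short of the critical value.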

How the results depend on the processing

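No paired analysis was possible because each line has 1 library. No list median with an interval clear of 0 changed sign under any alternative run. In OE19, ESO-26 and OAC_5.1_C the direction of the list median held under library size, DESeq2 size factors, a pseudocount of 5, deposited FPKM, the mean as reference, no filter and no mitochondrial counts. Library size alone moved the median of all genes by -0.24 in JH_EsoAd1 and 0.13 in ESO-51, and FPKM set the median difference of all genes in JH_EsoAd1 at -0.57. The denominator of FPKM holds counts outside the table, whose share is highest in JH_EsoAd1. With library size alone, the number of members higher became 1 in OACP4_C, 2 in OE33, the number of members lower became 1 in OACP4_C, 2 in SK-GT-4, 1 in ESO-51, 6 in JH_EsoAd1 and the list median became 0.24 in FLO-1, 0.29 in ESO-51, -0.43 in JH_EsoAd1. With library size alone, 10.6% and 14.9% of all genes were higher in OACP4_C and OE33. Lower were 5.89% in OACP4_C, 8.96% in SK-GT-4, 8.26% in ESO-51 and 9.22% in JH_EsoAd1. With DESeq2 1.42.0 size factors, the number of members higher became 2 in OE33, against 13.2% of all genes. With a pseudocount of 5, the number of members lower became 0 in OACP4_C, 1 in ESO-51, 0 in JH_EsoAd1 and the number of members higher became 0 in OE33, 1 in ESO-51. The shares of all genes fell as well with that pseudocount. Lower were 2.75% in OACP4_C, 5.76% in ESO-51 and 2.95% in JH_EsoAd1, and higher were 7.66% in OE33 and 7.09% in ESO-51. On the deposited FPKM scale, the list median became 0.12 in OACP4_C, -0.94 in OE19, -0.041 in FLO-1, 1.22 in ESO-26, -1.47 in JH_EsoAd1, the number of members lower became 0 in OACP4_C, 18 in OE19, 0 in ESO-26, 0 in ESO-51, 32 in JH_EsoAd1 and the number of members higher became 1 in FLO-1, 1 in SK-GT-4, 25 in ESO-26, 0 in OE33, 4 in ESO-51, 0 in JH_EsoAd1. Lower on the FPKM scale were 0.831% of all genes in OACP4_C, 2.85% in OE19, 5% in ESO-26, 3.002% in ESO-51 and 30.01% in JH_EsoAd1. Higher were 5.27% in FLO-1, 7.43% in SK-GT-4, 10.9% in ESO-26, 5.47% in OE33, 7.21% in ESO-51 and 0.901% in JH_EsoAd1. Without mitochondrial counts, the number of members higher became 2 in OE33, against 13.1% of all genes. With TMM factors from all genes, an alternative chosen after seeing the data, the number of members lower became 1 in OACP4_C, 1 in ESO-51. The shares of all genes lower were then 5.88% and 10.1%, in that order. Against the mean of the other 8 libraries, the number of members lower became 0 in OACP4_C, 2 in SK-GT-4 and the number of members higher became 1 in FLO-1, 3 in SK-GT-4. With a call at 1.5-fold, the number of members lower became 10 in OACP4_C, 7 in SK-GT-4, 2 in ESO-26, 12 in OE33, 7 in ESO-51, 8 in JH_EsoAd1 and the number of members higher became 5 in FLO-1, 8 in SK-GT-4, 26 in ESO-26, 3 in OE33, 8 in ESO-51, 26 in OAC_5.1_C, 4 in JH_EsoAd1. With other libraries left out in turn, the number of members higher in SK-GT-4 ran from 0 to 2 (moved without OACP4_C, FLO-1, ESO-26, OE33, ESO-51, OAC_5.1_C), the number of members lower in SK-GT-4 ran from 1 to 2 (moved without OACP4_C, OE19, OE33, JH_EsoAd1), the number of members lower in ESO-51 ran from 1 to 2 (moved without OACP4_C, FLO-1, OAC_5.1_C, JH_EsoAd1). In the same way, the number of members higher in OACP4_C ran from 1 to 3 (moved without OE19, ESO-51), the list median in FLO-1 ran from -0.029 to 0.19 (moved without OE19), the number of members higher in ESO-51 ran from 1 to 3 (moved without OE19, SK-GT-4). In the same way, the number of members lower in OACP4_C ran from 0 to 2 (moved without FLO-1, SK-GT-4, ESO-26, ESO-51, OAC_5.1_C, JH_EsoAd1), the number of members higher in OE33 ran from 1 to 2 (moved without FLO-1, ESO-26, OAC_5.1_C, JH_EsoAd1), the number of members lower in JH_EsoAd1 ran from 1 to 3 (moved without FLO-1, ESO-26, ESO-51, OAC_5.1_C). In the same way, mitosis minus replication in FLO-1 ran from -0.38 to -0.12 (moved without ESO-51, JH_EsoAd1). Shares of all genes called at 1.5-fold, against the mean or with a library left out are not given here. The member counts of those runs thus have no background to be read against. Each of the 10 largest offsets kept its direction and stayed past 1 log2 unit under the scalings, pseudocount, FPKM and mean reference, all run after seeing the data, as was the mitosis minus replication difference. Ranges over libraries moved beyond their Poisson interval for 33 of 40 members with FPKM, 20 with the pseudocount of 5 and 15 with library size. Depth limits little: the smallest count behind a member value was 58. What limits these results is 1 library per line.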
